A study of Homo sapiens and Mus musculus with 10 samples.

Results

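HEK293T cells labelled UFD1s-deficient were set against wild-type (WT) HEK293T cells, both mock-treated, with 1 library a side. HEK293T is an established human embryonic kidney line, and RNA was sequenced after removal of ribosomal RNA. The transcripts described are the 10121 of 11976 rows of the genotype table that had 50 or more reads in the higher of the mock libraries. Of these, 448 lie on chromosome 16, 471 on chromosome 7 and 9202 elsewhere. The series holds 10 libraries. The same table gives WT and deficient cells deprived of glucose for 24 h (GD), again with 1 library each, and a separate stress set adds a further WT mock library of this line. The labels give no agent, vector or guide behind the deficiency and do not say whether the deficient line is a clone or whether libraries came from separate cultures. With 1 library a side the mock comparison has no test, so it is described by size, and any difference between the lines that is not due to the genotype cannot be told apart from the genotype.

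UFD1 binds NPLOC4 (NPL4), and the heterodimer guides the ATPase VCP (p97) to ubiquitinated proteins, which p97 then unfolds or pulls out of membranes and complexes. In cultured cells this machinery is best known for degradation of misfolded proteins of the endoplasmic reticulum (ER), for release of proteins from chromatin and for processing of membrane-bound transcription factors. UFD1s is named in the labels only as the form missing in the deficient cells.

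The table held 12379960 reads in WT mock, 13110714 in deficient mock, 11461365 in WT GD and 11912659 in deficient GD. UFD1 itself had 168 reads in WT mock, 199 in deficient mock, 107 in WT GD and 193 in deficient GD. The UFD1 row counted is not stated to cover the part that differs in the deficient cells, so it checks nothing about the labels. NPLOC4 had 4566 reads in WT and 5373 in deficient mock, a ratio of 1.12 (95% counting interval 1.08 to 1.17), and VCP had 10385 and 11206, a ratio of 1.03. The 7 markers usual for HEK293T with enough reads had log2 ratios from −0.82 to 0.37 with a median of 0.05. The neurofilament chain NEFL had 2945 reads in WT and 3445 in deficient mock, and vimentin (VIM) had 14080 and 13464. The lowest ratio was that of LHX1 with 288 and 169 reads, and the highest that of INA with 82 and 113. Of 10 blood-cell markers, 0 were among the transcripts analysed. The 5 fibroblast markers with enough reads had log2 ratios from −0.36 to 0.64 with a median of 0.30, and their part in the results was not tested.

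A transcript was called changed when its scaled reads differed at least 2-fold, taken as a log2 ratio of 1 or more in size with 5 reads added on each side. By this measure 272 of 10121 transcripts (2.69%) were changed, 150 higher (1.48%) and 122 lower (1.21%) in deficient cells. Counts within the gene lists below are to be read beside these shares. Most changed transcripts had few reads. Of those with 50 to 99 reads in the higher library 8.24% passed, against 1.80% at 200 to 499 reads, 0.796% at 500 to 999 and 0.350% at 1000 or more. The read minimum falls in a dense part of this range. Of 259 transcripts with 50 to 54 reads 33 were past 2-fold, and of 253 with 45 to 49 reads, just outside, 34 were. The whole 95% counting interval lay past 2-fold for 79 transcripts.

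**Figure D1:**
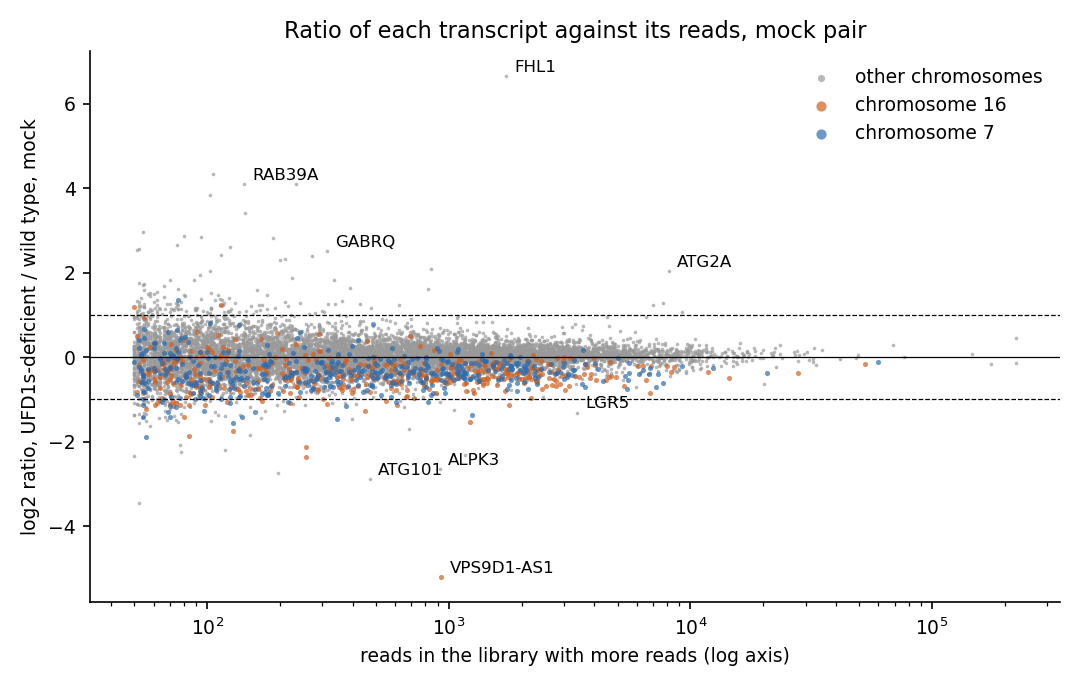
Each point is a transcript of the mock pair, with the reads of its higher library on a log x axis and the log2 ratio of deficient over wild type on the y axis. Dashed lines mark 2-fold, chromosome 16 is orange and chromosome 7 blue. The spread narrows to the right, FHL1 at 6.66 and VPS9D1-AS1 at −5.21 stand farthest out, and most points of both chromosomes sit below 0.

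The highest ratio was that of FHL1, on chromosome X, a LIM-domain scaffold protein known from muscle. It had 11 reads in WT mock and 1720 in deficient mock, a 149-fold ratio (95% counting interval 83.0 to 299). In GD it had 22 reads in WT and 2155 in deficient cells, so both deficient libraries lay far above both WT libraries. The stress set counts another FHL1 transcript and gives no value for this one. RORB, a nuclear receptor, was listed at 0 reads in both WT libraries of the table, with 106 reads in deficient cells in mock and 85 in GD. Against a floor of 3 counts per library, with the 106 reads taken as counted, it was at least 33.7-fold higher in mock. The exact 95% lower limit, which also covers counting error in those reads, is 26.9. The stress-set WT mock library had 4 reads, with a log2 ratio of 3.68 against it.

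EPHA7, a receptor for ephrins, had 8 reads in WT mock, 234 in deficient mock, 0 in WT GD and 82 in deficient GD. Its mock ratio was 27.9 (95% counting interval 13.9 to 65.3). The stress-set WT mock library had 42 reads, more than the other WT libraries and fewer than either deficient library. EPHA6 had 47 and 160 reads in WT and deficient mock, and EPHA10 43 and 117. These were the 3 changed members of 17 ephrins and ephrin receptors, all higher with 0 lower, where 1.48% of all transcripts were higher. The list median was 0.09 against 0.01 for all transcripts. ASTN1, an adhesion protein of migrating neurons, had 2 and 54 reads, and CSMD2 had 15 and 124. KCNA4, a voltage-gated potassium channel, had 6 reads in WT mock, 80 in deficient mock, 2 in WT GD and 43 in deficient GD.

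A pair of adjacent GABA receptor genes on chromosome X was higher together. GABRQ had 48 reads in WT mock, 312 in deficient mock, 31 in WT GD and 243 in deficient GD, a 6.19-fold mock ratio (95% counting interval 4.56 to 8.58). GABRA3 had 36, 210, 16 and 106 reads in the same order, a 5.56-fold mock ratio. The next subunit gene along the chromosome, GABRE, had 438 and 709 reads in WT and deficient mock and stayed under 2-fold at 1.54. Beyond them CETN2 and VMA21 had log2 ratios of 0.33 and 0.32. Of 7 GABA and glutamate receptor transcripts 3 were higher and 0 lower, where 1.48% of all transcripts were higher. The third was GABRR2 with 19 and 55 reads, and the list median was 0.62. Against stress-set WT mock the log2 ratios were 2.16 for GABRQ, 2.23 for GABRA3 and 0.56 for GABRR2.

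RAB39A, a small GTPase of vesicle traffic, had 3 reads in WT mock, 142 in deficient mock, 13 in WT GD and 123 in deficient GD. Its mock ratio of 45.1 has a wide 95% counting interval, 15.1 to 221, since it rests on 3 reads. By this rule of size it was the only changed member of 39 RAB GTPases, a share near the 2.69% of all transcripts past 2-fold. Its neighbours SLC35F2 and CUL5 had log2 ratios of 0.22 and −0.00107. The secreted proteases ADAMTS12 and TLL1 had 2 and 7 reads in WT mock and 103 and 75 in deficient mock. TNFRSF9, OLR1 and CCDC85A had 8, 4 and 4 reads in WT mock and 94, 52 and 51 in deficient mock. TNFRSF9 also had 42 reads in WT GD, 104 in deficient GD and 41 in stress-set WT mock.

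ATG2A, a lipid transfer protein that feeds the growing autophagosome membrane, had the highest ratio among transcripts with 1000 or more reads in WT mock. It had 1876 reads in WT mock and 8134 in deficient mock, a 4.13-fold ratio (95% counting interval 3.93 to 4.35). It had 1328 and 6055 reads in WT and deficient GD and 1382 in the stress-set WT mock library, so the WT libraries lay together and below both deficient libraries. Its neighbours EHD1 and PPP2R5B had log2 ratios of 0.42 and 0.18.

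The lowest ratio was that of VPS9D1-AS1, a noncoding transcript of chromosome 16 named as antisense to VPS9D1. It had 931 reads in WT mock and 21 in deficient mock, 46.5-fold lower (95% counting interval 30.3 to 75.5), with 741 and 17 in GD and 504 in the stress-set WT mock library. VPS9D1 had 311 reads in WT mock and 320 in deficient mock. Whether strand was used in counting is not given in the sources used here, so reads where the transcripts overlap cannot be told apart. SPATA33, 3 transcripts away along the chromosome, had 257 and 58 reads in WT and deficient mock. ALPK3, a kinase of heart muscle encoded on chromosome 15, had 917 reads in WT mock, 148 in deficient mock, 1065 in WT GD, 159 in deficient GD and 964 in stress-set WT mock. It was 6.50-fold lower in the mock pair (95% counting interval 5.46 to 7.79), and its neighbours ZNF592 and AKAP13 had log2 ratios of 0.13 and 0.69.

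GBX2, a homeobox factor, had 1170 reads in WT mock, 242 in deficient mock, 1164 in WT GD and 312 in deficient GD, 5.07-fold lower in mock. FOXF1, a forkhead factor of mesoderm on chromosome 16, had 256, 48, 129 and 46 reads in the same order, and the homeobox factor EN2, on chromosome 7, had 1251, 503, 752 and 322. For each of these 3 both deficient libraries lay below both WT libraries. FOXF1's neighbours FENDRR, FOXC2 and FOXL1 had log2 ratios of −1.06, −0.69 and −0.85, while IRF8, next to FENDRR, was higher with 43 and 114 reads. Of 28 forkhead transcripts 5 were lower and 1 was higher, with a median of −0.25, beside 1.21% lower and 1.48% higher among all transcripts. The lower members besides FOXF1 were FOXE1, FOXE3, FOXQ1 and the counted FOXM1 row, which had 52 reads in WT mock and 0 in deficient mock but 29 and 16 in GD. FOXE1 was higher in GD (log2 ratio 1.13), and FOXE3 was higher against stress-set WT mock (0.30). The higher member, FOXA3, had 12 and 54 reads in WT and deficient mock but 18 and 10 in GD. In a group of 26 patterning factors put together after their values were seen, 8 were lower and 3 higher, with a median of −0.17 in mock and 0.11 in GD. Since it was built from genes seen to differ, it supports no direction. It holds HAND1, with 684 reads in WT mock and 216 in deficient mock but 130 and 145 in GD, and EBF2, with 397 and 148 in mock.

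LGR5, the R-spondin receptor that marks stem cells and amplifies Wnt signals, had 3381 reads in WT mock, 1428 in deficient mock, 1196 in WT GD, 361 in deficient GD and 4416 in stress-set WT mock. The mock ratio was 2.49-fold lower (95% counting interval 2.34 to 2.65). DKK1, a secreted Wnt inhibitor, had 65 and 169 reads in WT and deficient mock and 39 and 171 in GD. Of 19 Wnt pathway transcripts 2 were lower, LGR5 and NKD2, and DKK1 was the only higher member by this rule. The list median was −0.22, and among all transcripts 1.21% were lower and 1.48% higher. Others of the 15 lowest ratios were those of the ferritin receptor SCARA5 with 119 and 23 reads in WT and deficient mock, the integrin ITGA8 with 78 and 13, SDHAF4 with 50 and 6, ZNF429 with 150 and 40 and the gelatinase MMP2 with 84 and 20. MMP2 had 12 reads in WT GD and 22 in deficient GD, the opposite order.

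The 250 bases before the annotated start of 4 of these genes are shown, because in these genes both deficient libraries lay clear of every WT library, 2 on the lower and 2 on the higher side. They are RefSeq sequence on GRCh38.p14, 5′ to 3′ in the direction of transcription, with CG pairs in capitals. The windows are chr16:89711606-89711855 (plus strand) for VPS9D1-AS1, chr15:84817106-84817355 (plus strand) for ALPK3, chr11:107928198-107928447 (plus strand) for RAB39A and chr11:64917210-64917459 (minus strand) for ATG2A.
VPS9D1-AS1: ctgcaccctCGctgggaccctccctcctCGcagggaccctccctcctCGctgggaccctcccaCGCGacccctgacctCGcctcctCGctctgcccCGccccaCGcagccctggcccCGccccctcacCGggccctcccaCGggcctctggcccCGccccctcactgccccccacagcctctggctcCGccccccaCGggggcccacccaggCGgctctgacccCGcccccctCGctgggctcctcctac
ALPK3: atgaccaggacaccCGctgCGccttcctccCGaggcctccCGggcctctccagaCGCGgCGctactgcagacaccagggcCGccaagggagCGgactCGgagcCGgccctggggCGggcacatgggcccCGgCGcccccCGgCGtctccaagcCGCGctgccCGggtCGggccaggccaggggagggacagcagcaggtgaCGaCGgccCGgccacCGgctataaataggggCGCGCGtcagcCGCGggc
RAB39A: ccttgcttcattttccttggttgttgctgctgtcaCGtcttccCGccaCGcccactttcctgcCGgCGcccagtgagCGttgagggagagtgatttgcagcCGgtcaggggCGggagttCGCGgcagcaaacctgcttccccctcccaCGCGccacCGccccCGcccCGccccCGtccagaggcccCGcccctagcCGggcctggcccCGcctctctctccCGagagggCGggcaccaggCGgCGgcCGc
ATG2A: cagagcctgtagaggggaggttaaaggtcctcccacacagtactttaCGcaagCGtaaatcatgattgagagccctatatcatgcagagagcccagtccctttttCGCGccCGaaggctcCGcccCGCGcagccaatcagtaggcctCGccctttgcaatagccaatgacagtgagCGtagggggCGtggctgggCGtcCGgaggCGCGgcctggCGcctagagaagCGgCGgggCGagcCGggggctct
They hold 18, 29, 24 and 20 CG pairs in that order. Of the 35116 windows of this length in the promoter table, 36.8%, 14.1%, 23.7% and 32.4% hold at least as many, and the median is 11. The letters TATAAA, sought on both strands, occur once in ALPK3's window and in 10.7% of all windows. The letters CCAAT, on either strand, occur 2 times in ATG2A's window, 0 times in the other 3 and in 32.0% of all windows. These are letter matches and not binding sites, and the lower and higher genes shown do not part by CG count.

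**Figure D2:**
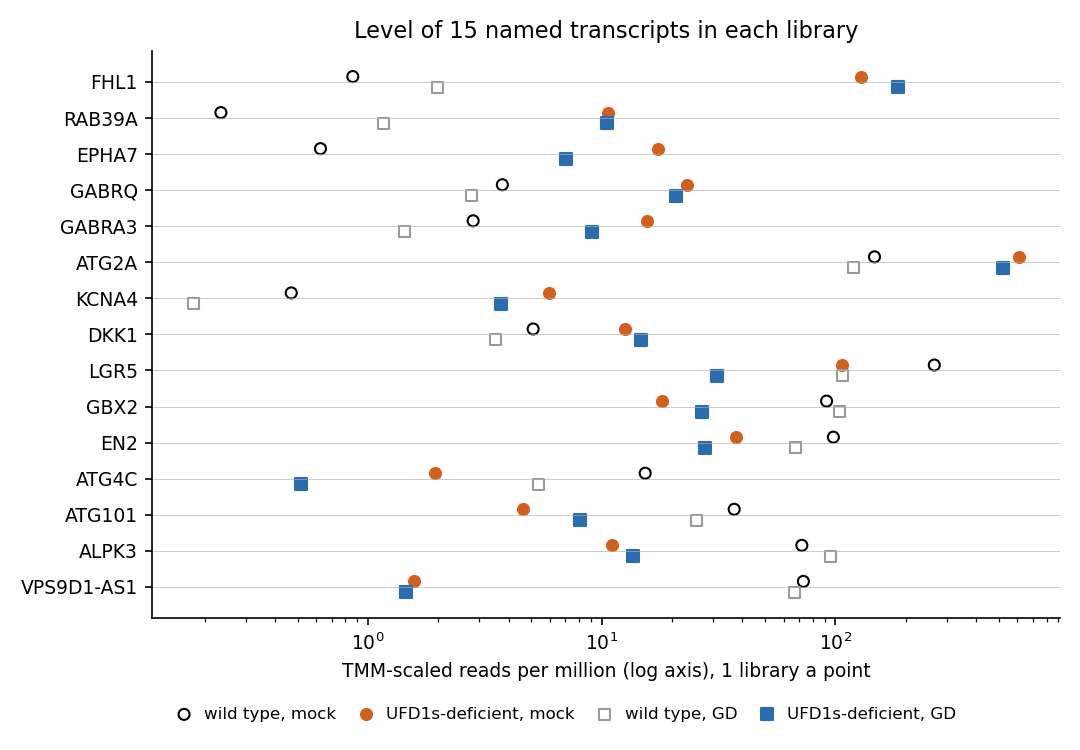
Each row is a named transcript and each point the TMM-scaled CPM (reads scaled to library size) of 1 library on a log x axis, for wild type (open) and deficient cells (filled) in mock (circles) and GD (squares). From FHL1 to DKK1 the filled points lie to the right of the open ones within each treatment, and from LGR5 to VPS9D1-AS1 they lie to the left. EPHA7 had 0 reads in wild-type GD, which a log axis cannot show, so its GD points are not compared. LGR5's deficient mock point lies level with its wild-type GD point.

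Transcripts of chromosomes 16 and 7 were lower as a body. On chromosome 16 the median log2 ratio was −0.43 (95% interval of the median −0.46 to −0.39, n = 448 transcripts), and 90.2% of transcripts were below 0. On chromosome 7 it was −0.36 (−0.39 to −0.33, n = 471), with 87.5% below 0. The 21 other chromosomes had medians from −0.07 on chromosome 12 to 0.13 on chromosome 10, and 29.9% to 59.7% of their transcripts were below 0. Transcripts of 1 library are not replicates. These intervals treat them as independent and place the median only, and they measure no spread between libraries. The quartiles of the transcripts were −0.61 and −0.20 on chromosome 16 and −0.57 and −0.15 on chromosome 7. With 500 or more reads, 96.8% of chromosome 16 and 94.6% of chromosome 7 transcripts were below 0, against 40.5% of those elsewhere. DNA copy number was not measured here, and its part in these shifts was not tested.

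**Figure D3:**
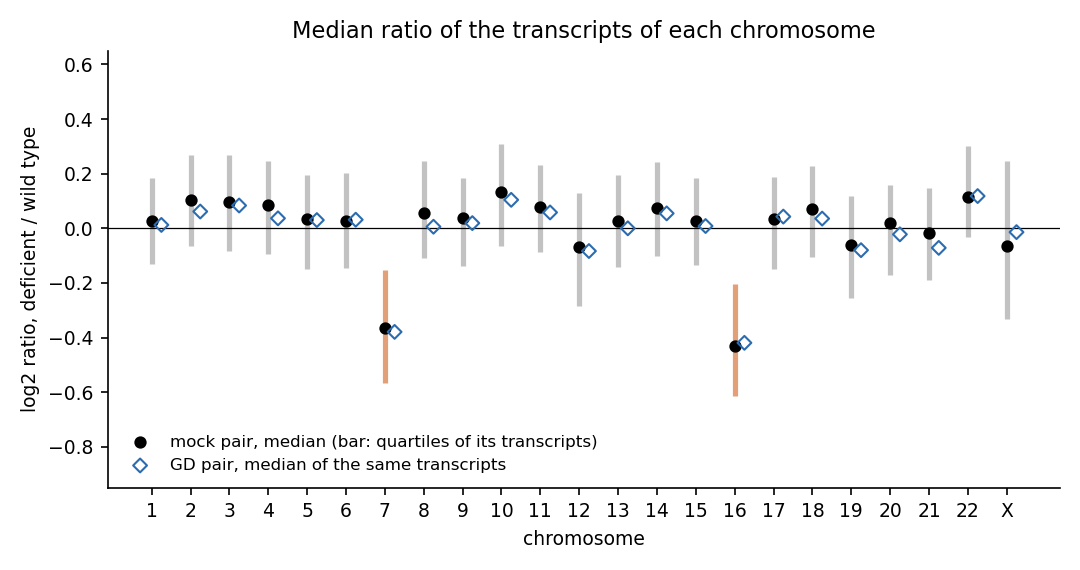
For each chromosome on the x axis the black point gives the median log2 ratio of deficient over wild type in the mock pair, the bar the quartiles of its transcripts, and the open diamond the median of the same transcripts in the GD pair. Chromosomes 7 and 16 lie from −0.43 to −0.36 in both pairs, and every other median lies between −0.08 and 0.13.

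The shift was uneven along chromosome 16. Before RRN3, in gene order, the median of 144 transcripts was −0.21, and from RRN3 to the end that of 304 transcripts was −0.51, a ratio of 0.703. Among those 304, 140 of the 141 with 500 or more reads were below 0. The step at RRN3 was picked from these data, as the start of the first long lower stretch, so it is given as a description. The last 45 transcripts, from ZDHHC7 to URAHP, had a median of −0.75. Against stress-set WT mock their deficient median was only −0.09, and stress-set WT mock against WT mock of the genotype set gave −0.64. On chromosome 7 the median stayed between −0.57 and −0.24 in 10 successive blocks of about 47 transcripts, lowest from TSPAN33 to PDIA4. The running median of 15 transcripts was past 0.3 below 0 in 18 stretches on these chromosomes, 7 on chromosome 16 and 11 on chromosome 7, and 0 stretches there were higher. The stretches took in 80.8% of the chromosome 16 and 94.3% of the chromosome 7 transcripts, where elsewhere lower stretches took in at most 19.9% (chromosome 12). Elsewhere there were 18 lower and 26 higher stretches, none longer than 33 transcripts, and 12 chromosomes had none. The longest of these was higher, from GRK5 to MGMT on chromosome 10, with a median of 0.31.

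**Figure D4:**
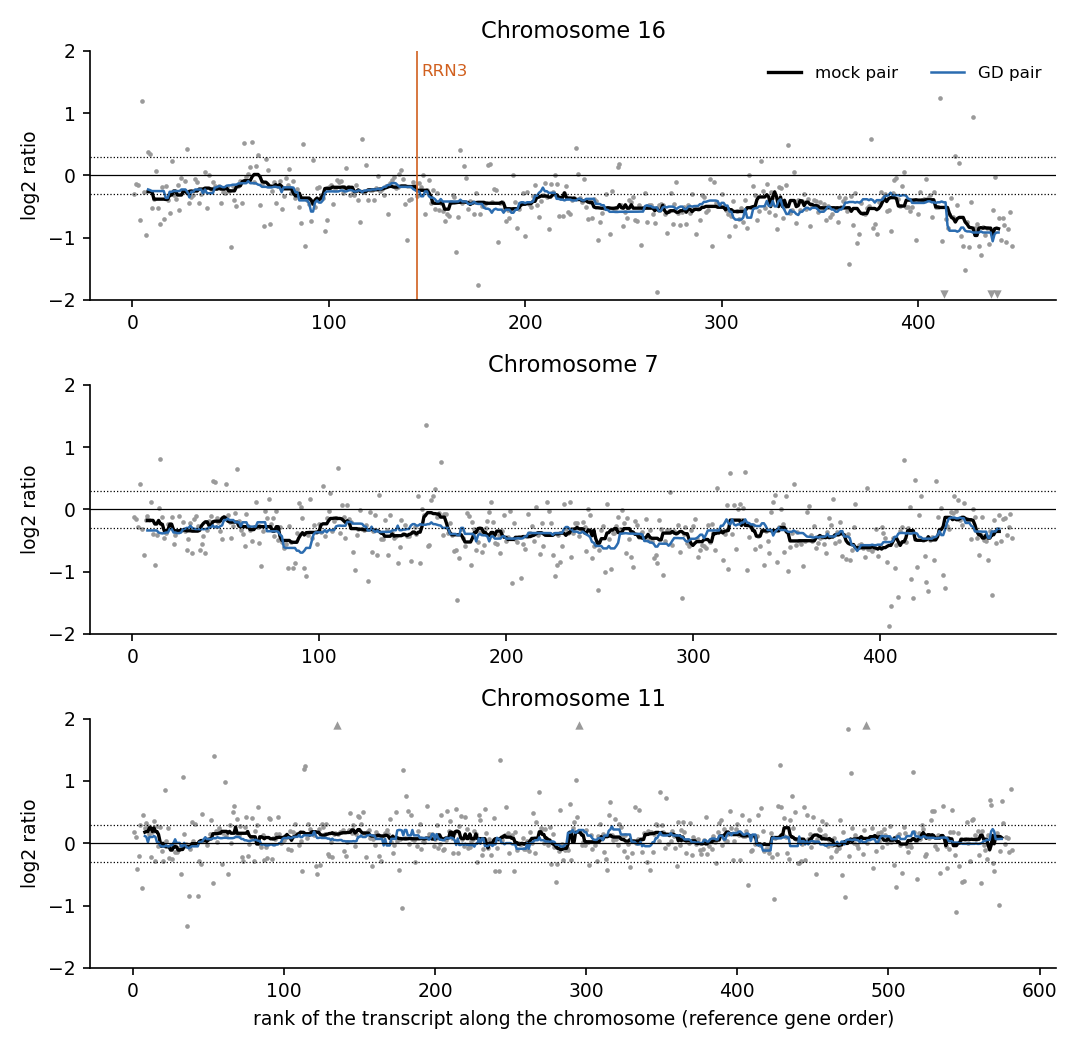
Transcripts are ranked along chromosomes 16, 7 and 11 on the x axis, with the log2 ratio of the mock pair as points (triangles mark points past the axis) and running medians of 15 transcripts for the mock pair (black) and the GD pair (blue). Dotted lines mark 0.3 on either side of 0. Both lines stay below 0 over most of chromosomes 16 and 7 and close to 0 on chromosome 11, shown as a chromosome with no shifted stretch.

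Of the 272 changed transcripts 48 lay on these chromosomes. On chromosome 16, 26 were lower (5.80% of its transcripts) and 2 higher, and on chromosome 7, 19 were lower (4.03%) and 1 higher. Without them 224 of 9202 were changed, 147 higher and 77 lower. On chromosome 16, CYBA, a subunit of the NADPH oxidase, had 1218 reads in WT mock, 440 in deficient mock, 655 in WT GD and 253 in deficient GD. Its neighbour ZC3H18 was lower too, with 1776 and 849 reads in mock, and its neighbour MVD had 401 and 248, a log2 ratio of −0.75. The lysosomal sulfatase GALNS had 448 and 191, the mitochondrial tRNA ligase EARS2 128 and 36, MARVELD3 80 and 28 and CRYM-AS1 56 and 22 reads in WT and deficient mock. Stress-set WT mock had 582 reads of CYBA, and the log2 ratio of deficient mock against it was −0.16, against −0.18 for GALNS, −0.00618 for MVD and −0.63 for ZC3H18. On chromosome 7, ZNF117 had 344 and 128 reads, the mitochondrial kinase PDK4 158 and 64, PCOLCE 139 and 51, SLC37A3 128 and 42, ZNF398 69 and 26, KDM7A-DT 56 and 12 and NDUFB2-AS1 54 and 18. The higher exceptions were IRF8 and NPRL3 on chromosome 16 and PKD1L1, with 25 and 76 reads, on chromosome 7.

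The GD pair compares the same lines after 24 h without glucose and shares no library with the mock pair. It had 269 of 9608 transcripts past 2-fold (2.8%), 133 higher (1.38%) and 136 lower (1.42%). Of the 150 transcripts higher in mock, 121 had the same sign in GD and 67 were again past 2-fold. Of the 122 lower ones, 101 had the same sign and 39 were past 2-fold. Counting those with 50 or more reads in both pairs, 84 were changed in the same direction, 48 higher and 36 lower. They make up 30.9% of the mock list and 31.2% of the GD list. Chromosome medians were −0.42 on chromosome 16 and −0.38 on chromosome 7 in GD, with the others between −0.08 and 0.12. The last 45 transcripts of chromosome 16 had a GD median of −0.89. Across the 4312 transcripts with 500 or more reads in both pairs the log2 ratios had a Pearson r of 0.816, and 0.755 over the 3925 of them off chromosomes 16 and 7. Both pairs come from the same lines, so this describes the lines and not independent deficient cells.

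**Figure D5:**
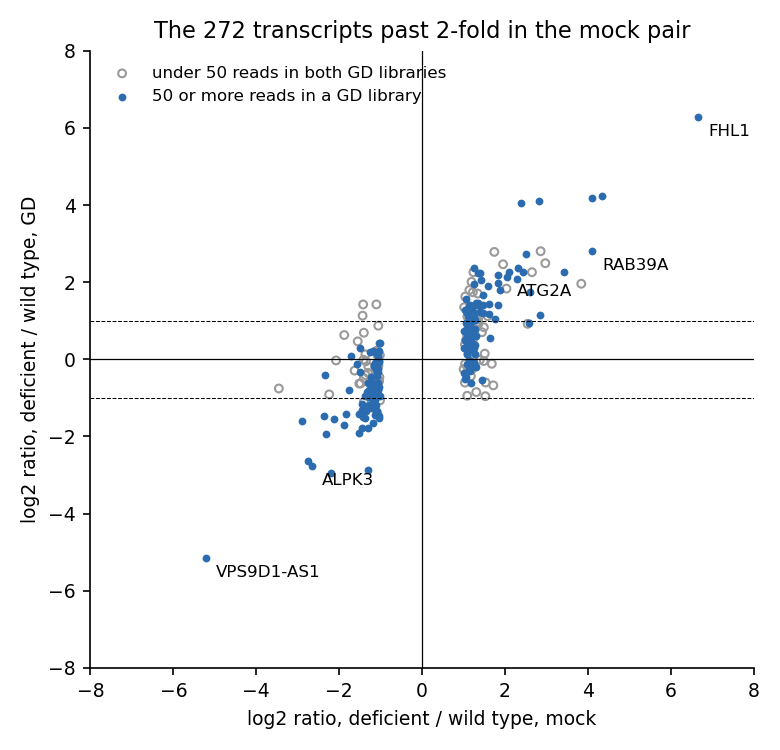
The 272 transcripts past 2-fold in the mock pair are placed by their mock log2 ratio (x axis) and their GD log2 ratio (y axis), filled where a GD library had 50 or more reads. Most lie in the lower left and upper right, with FHL1 and VPS9D1-AS1 at the far ends, and the few past 2-fold in opposite directions are open points with few reads.

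The second WT mock library, of the stress set, differed from the WT mock library of the genotype set by more than the deficient library did. Past 2-fold were 889 of 9090 transcripts (9.78%) between the WT libraries and 1106 of 9187 (12%) between deficient mock and stress-set WT mock, counted on transcripts in both tables. The sets also differed by chromosome, with WT against WT medians from −0.50 on chromosome 19 to 0.27 on chromosome 13, −0.30 on chromosome 16 and −0.03 on chromosome 7. Against the stress-set WT library the deficient medians were −0.07 on chromosome 16 and −0.33 on chromosome 7. With 500 or more reads they were −0.55 from RRN3 to the end of chromosome 16, 0.19 before RRN3 and −0.38 on chromosome 7. The lower level after RRN3 and on chromosome 7 was present against either WT library at that depth, and the lower level before RRN3 was not. With 50 or more reads the median from RRN3 on was −0.22 against stress-set WT mock. Blocks of chromosome 7 then ranged from −0.72 (TSPAN33 to PDIA4) to 0.29 (GPC2 to PUS7) against it, so the shift did not hold in every block. These comparisons share a library, so their values are only set side by side.

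An edgeR quasi-likelihood fit of the genotype term joined the 6 HEK293T mock and GD libraries of both sets, with set, genotype and treatment as terms and 2 residual degrees of freedom. It called 115 of 10368 shared transcripts (1.11%), 34 higher (0.328%) and 81 lower (0.781%), and 1470 had an unadjusted p under 0.05. The call count rests on few libraries. It was 5 without deficient mock, 5 without deficient GD, 1655 without stress-set WT mock and 1938 without stress-set WT GD. Of the mock changes, 22 of 131 tested higher and 25 of 99 tested lower transcripts were called in the same direction, and off chromosomes 16 and 7 these were 22 of 128 and 15 of 62. The fit uses the mock libraries themselves and is not independent of the mock list. Both deficient libraries are of the genotype set, so the genotype term sets them against the WT libraries of that set alone. FHL1, not among the shared transcripts, was not in the fit. For ATG2A it gave a log2 difference of 2.09 (SE 0.111, edgeR adjusted p = 2.61e-05), for ALPK3 −2.75 (SE 0.145, edgeR adjusted p = 2.61e-05) and for VPS9D1-AS1 −5.52 (SE 0.222). EPHA7, RORB, GABRQ, LGR5, CYBA and EN2 were called too, with edgeR adjusted p from 0.00235 to 0.00608. KCNA4 and TNFRSF9 were not called (edgeR adjusted p = 0.085 and 0.0945).

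Of 16 p97 cofactors, 17 ER-associated degradation genes and 27 proteasome subunits 0 were past 2-fold in the mock pair, with medians of 0.07, 0.10 and 0.08. With 2.69% of all transcripts past 2-fold, a count of 0 in lists of this size is near the background and says nothing particular about them. The highest ratios were those of YOD1, a deubiquitinase that works with p97, with 1391 and 2149 reads in WT and deficient mock, and EDEM1, which hands misfolded glycoproteins to degradation, with 2041 and 3604. EDEM1 was called by the genotype term (edgeR adjusted p = 0.0395). The lowest were those of the related EDEM2, at −0.68 with 61 and 38 reads, of ERLIN1 at −0.62 and of the proteasome subunit PSMD7 at −0.62. Lists of stress pathways also had 0 past 2-fold, again near the background, with 0 of 20 integrated stress response genes (median −0.08), 0 of 21 ER chaperones (0.01), 0 of 15 cytosolic heat shock genes (−0.05) and 0 of 12 NRF2 antioxidant genes (0.10). PSMD7 and the tRNA ligase AARS, at −0.68, are encoded on chromosome 16, and the ER chaperone PDIA4, at −0.75, on chromosome 7. AARS, a member of the integrated stress response list, was called by the genotype term (edgeR adjusted p = 0.0291).

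Of 24 autophagosome genes 2 were higher and 2 lower, with a median of −0.02, beside 1.48% higher and 1.21% lower among all transcripts. RB1CC1, a scaffold of the kinase complex that starts autophagy, joined ATG2A with 26 and 67 reads in WT and deficient mock, but had 116 in the stress-set WT mock library. ATG101, another subunit of that complex, had 471 reads in WT mock, 62 in deficient mock, 284 in WT GD and 94 in deficient GD. ATG4C, a protease that trims the ATG8 proteins, had 196, 26, 60 and 6 reads in that order. Stress-set WT mock had 35 and 18 reads of ATG101 and ATG4C. On scaled reads the deficient library was higher than that WT library, with log2 ratios of 0.95 and 0.61, so the direction for these genes depends on which WT library is the baseline. The genotype term, which fits the set as a term, called both lower, by −2.30 (SE 0.314, edgeR adjusted p = 0.0174) and −3.06 (SE 0.489, edgeR adjusted p = 0.0251). Deficient libraries exist only in the genotype set, so that term compares them with WT of that set alone. It cannot decide between the WT baselines. ATG2A alone of the 4 kept its direction and 2-fold size against both WT mock libraries. The core genes ATG5, ATG3, BECN1 and ULK1 had log2 ratios of 0.05, 0.06, 0.25 and −0.25.

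Growth and signalling genes with short-lived transcripts were higher in part. Among all transcripts 1.48% were higher and 1.21% lower, and the counts here are to be read beside these shares. Of 14 immediate early genes 3 were higher and 0 lower with a median of 0.28. These were EGR1 with 37 and 108 reads in WT and deficient mock, CYR61 with 2841 and 7017 and CTGF with 4159 and 9196. CYR61 and CTGF are matrix proteins known as targets of the coactivator YAP. Their stress-set WT mock library had 3051 and 4176 reads, so both WT mock libraries lay below deficient mock. In GD the gap was smaller, with 19368 and 26626 reads of CYR61 in WT and deficient cells, and the genotype term did not call them (edgeR adjusted p = 0.627 and 0.701). EGR1 was not called either (edgeR adjusted p = 0.120). In a group of 16 YAP target transcripts drawn up after values were seen, 3 were higher, and the median was 0.47. Besides CYR61 and CTGF, counted again here, the third was ANKRD1 with 3041 and 7718 reads in mock and 19975 and 55735 in GD. Since this group was drawn up with values known, it supports no direction. Of 12 interferon and NF-kB genes 2 were higher, RELB with 48 and 130 reads and BIRC3 with 28 and 71. Stress-set WT mock had 39 and 68 reads of them, and the log2 ratios against it were 1.82 and 0.28. RELB and BIRC3 were not called by the genotype term (edgeR adjusted p = 0.303 and 0.422). Of 11 voltage-gated potassium channels, also grouped after values were seen, 4 were higher and 1 lower, so these counts support no direction either.

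Of 326 zinc finger genes named ZNF, many of which encode DNA-binding repressors, 9 were lower and 0 higher, with a median of −0.15. Among all transcripts 1.21% were lower. Besides ZNF429 and ZNF117 the lower members were ZNF605, with 76 and 24 reads, ZNF491, with 54 and 18, ZNF398, ZNF660, ZNF786, ZNF492 and ZNF862. Of the 285 members off chromosomes 16 and 7, 5 were lower, with a median of −0.12, where 0.837% of all transcripts off them were lower. HOX transcripts had a median of −0.30 with HOXA13, on chromosome 7, the only changed member of 28 by this rule, at 607 and 300 reads. The 20 HOX transcripts off chromosomes 16 and 7 had a median of −0.11 with 0 changed. Among basic functions, 0 of 35 respiratory chain, 0 of 15 glycolysis, 0 of 18 DNA replication, 0 of 23 mitotic and 0 of 42 histone transcripts were past 2-fold. With 2.69% of all transcripts past 2-fold, counts of 0 in lists of this size are again near the background. In these lists the genotype term called CDT1, a replication licensing factor on chromosome 16, and HIST2H2AB, both lower (edgeR adjusted p = 0.0174 and 0.0365). Against stress-set WT mock the log2 ratios of CDT1 and HIST2H2AB in deficient mock were 0.23 and 0.14, the opposite sign. Of 77 ribosomal protein transcripts RPL13, on chromosome 16, was lower with 314 and 150 reads, against 158 in stress-set WT mock, where the log2 ratio of deficient cells was 0.16. HMGCS1 was higher among 17 cholesterol genes with 40 and 96 reads, against 110 in stress-set WT mock.

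The higher and lower lists differed in what they hold. Noncoding transcripts made up 6.48% of all transcripts, 2.67% of the higher and 15.6% of the lower ones. Names marking an antisense or divergent transcript made up 1.93%, 0.667% and 8.20%. Transcripts of chromosome X made up 3.31%, 8% and 6.56%, among them on the higher side FHL1, GABRQ, GABRA3 and CAPN6, a calpain family member with 35 and 201 reads in WT and deficient mock. Transcripts with under 100 reads made up 17.5% of all, 52.0% of the higher and 55.7% of the lower list, so the shares above describe a list weighted to scarce transcripts. In a bulk library a lower count can come from fewer cells of a kind or from less RNA per cell, and these cannot be told apart.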

How the data were processed

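RNA-seq of HEK293T cells was taken from the authors' deposited tables of raw read counts per transcript. Libraries came from total RNA with a TruSeq Ribo Profile kit, per the labels' protocols. Cutadapt, FastQC, Bowtie2, bedtools and hg19 are named in the submitters' processing notes. How reads were counted, with which annotation and whether by strand, is not given in the sources used here. Each row is a transcript, not a gene total, and the lowest row sum was 75.

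Groups came from the labels. Counts were scaled by TMM (edgeR 4.0.16, R 4.3.3), with a prior count of 5 for log2 ratios. A change was 2-fold with 50 reads in the higher library. Folds carry exact conditional 95% intervals, for counting error only. The genotype term was fitted with edgeR's quasi-likelihood test, adjusted by Benjamini-Hochberg at 0.05, with DESeq2 (1.42.0) as an alternative. No libraries in that fit were replicates of each other. Its p-values are set against how far the GD response differs between sets and between genotypes, which may in part be technical. They do not measure a spread between replicates. Chromosome and gene order came from a RefSeq table on GRCh38.p14, which matched 11850 of 11976 rows by accession, 83 by symbol, 30 by synonym and 13 not at all.

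The members, the 39 gene lists and the tests were chosen with earlier results of these data known, and 4 further lists after values were seen. Named genes are UFD1, NPLOC4 and VCP, the 15 highest and 15 lowest ratios, 10 on each of chromosomes 16 and 7, up to 4 a list and the ends of stretches, without small RNAs, histones and uncharacterised loci. Part of these are not reported. Neighbours and other genes were named after values were seen. Promoter sequences are RefSeq's.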

Additional observations from a re-analysis of the deposited data

Results flagged for a closer look

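Several transcripts were past 2-fold in opposite directions in the mock and the GD pair. The difference was not tested, since each pair has 1 library a side, and 0 of them had 50 reads in a GD library. CASP2, a caspase on chromosome 7, had a log2 ratio of −1.42 in mock (70 reads in WT, 24 in deficient cells) and 1.42 in GD (10 and 36). FOXE1 had −1.44 in mock (63 and 21 reads) and 1.13 in GD (15 and 40). TMEM35A had −1.10 in mock (51 and 22 reads) and 1.42 in GD (0 and 8).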

How the results depend on the processing

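The 2 mock libraries set the limits. No paired analysis was possible because the labels carry no replicate numbers, and set and treatment entered the genotype fit as terms. The count of 272 changed transcripts depended on the bounds for scarce transcripts. It was 443 with 20 reads in the higher library, 453 with no minimum, 126 with 100 reads, 139 with a prior count of 20 and 79 where the whole counting interval had to pass 2-fold. It was 1106, 886 higher and 220 lower, with the stress-set WT mock library as baseline. Library totals alone (275), RLE size factors (272), a prior count of 0.5 (341) and leaving out chromosomes 16 and 7 (224) kept it within 1.5 times. The chromosome 16 and 7 medians stayed within their intervals under each scaling and read minimum tried. The number of shifted stretches was 62, but 95 with a window of 11, 133 with a bound of 0.2 and 37 with a bound of 0.4. Changes shared with the GD pair numbered 84 to 120. The genotype term called 115 transcripts with edgeR, 222 with DESeq2 and 1614 in the 4 libraries of the genotype set, and 5 to 1938 when each library was left out in turn. The cause was not tested. Of 543 values of the 181 named ratios under 3 alternatives each, 541 lay within their counting intervals, as did 70 of 70 list medians within theirs. The exceptions were RORB and FOXM1, at 0 reads in a library, with a prior count of 0.5 (log2 7.60 and −6.65). No named ratio past 2-fold changed sign under library totals, RLE or that prior count. Among ratios past 2-fold, the sign against stress-set WT mock turned for ATG101 (0.95), ATG4C (0.61), FOXE3 (0.30), RB1CC1 (−0.51), RPL13 (0.16), NPRL3 (−0.61) and COL9A3 (0.46). It also turned for smaller ratios, such as that of CDT1.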
